A study of Mus musculus with 16 samples.

Results

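The mRNAs described here are 7 transcripts whose translation is governed by upstream open reading frames and rises when the initiation factor eIF2 is phosphorylated: Atf4, Atf5, Ddit3, Ppp1r15a, Ppp1r15b, Ifrd1 and Slc35a4. They were picked by symbol, and all 7 were found once in both deposited tables, among 24946 genes in each. The tables come from neural stem cell (NSC) cultures of the ventricular-subventricular zone, the germinal layer lining the lateral ventricle of the mouse brain. Control cultures carried intact Tsc2 alleles (Tsc2 wt/wt, 4 cultures) and mutant cultures carried inactivated ones (Tsc2 mut/mut, 4 cultures). Inactivation used a conditional Tsc2 allele with a red fluorescent reporter and a tamoxifen-inducible Cre driven by the Nestin promoter, so it reached cells with Nestin promoter activity and their progeny. Per the study's methods, neonatal pups of control and Tsc2 lines alike were given tamoxifen and their brains taken a week later; that the control pups of these cultures carried the Cre is not spelled out, and sex and litter are not given per sample. Every culture was expanded in growth factors, exposed to cycloheximide, and split into a total RNA library and a library of polyribosomal RNA, the transcripts recovered with the heavy end of a sucrose gradient. The comparison asks whether loss of Tsc2, which restrains the growth kinase mTORC1, changed the abundance of these mRNAs, their amount on polyribosomes, or the ratio of both, called translational efficiency.

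The integrated stress response begins when one of several kinases phosphorylates eIF2, which slows the exchange of its guanine nucleotide by eIF2B and lowers initiation on most mRNAs. A small group of mRNAs responds the other way, because ribosomes that would stop at an inhibitory upstream frame then reach the main coding sequence more often. Atf4 is the best known case: ribosomes re-initiating after a short first frame bypass a second one that overlaps the main start. In Ddit3, Ppp1r15a and Ppp1r15b an upstream frame lies wholly before the main start and is thought to be bypassed by leaky scanning. ATF4 and CHOP, the product of Ddit3, are bZIP transcription factors that drive amino acid supply and stress genes, and the products of Ppp1r15a (GADD34, inducible) and Ppp1r15b (CReP, constitutive) recruit protein phosphatase 1 to remove the phosphate from eIF2. mTORC1 is itself known to raise ATF4 output in growing cells.

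The upstream frames were read from 1 coding transcript per gene in the GENCODE M21 annotation of mouse genome build GRCm38, the build that mm10 names. Atf4 (chr15:80255184-80257541, plus strand) has a 5′ leader of 594 bases with 3 upstream AUGs, which open frames of 36, 3 and 59 codons. The frame of 59 codons begins 97 bases before the main start and runs past it. Atf5 (chr7:44812256-44816658, minus strand) has the same layout, with a frame of 3 codons followed by one of 58 codons that overlaps the main start. Ddit3 (chr10:127290774-127296288, plus strand) has the shortest leader of the 7 genes, 186 bases, and its 2 upstream AUGs lie in a single frame that gives peptides of 34 or 31 codons and stops before the main start. Ppp1r15a (chr7:45522916-45526268, minus strand) has frames of 45, 34 and 26 codons and Ppp1r15b (chr1:133131143-133139783, plus strand) frames of 2, 8 and 51 codons, all ending before the main start. Ifrd1 (chr12:40201567-40248504, minus strand), a transcriptional co-regulator, has a single frame of 52 codons in a leader of 233 bases. Slc35a4, a member of the nucleotide sugar transporter family, has the longest leader, 1099 bases with 18 upstream AUGs, including a frame of 103 codons. An upstream AUG by itself was common: 51.2% of the 13618 annotated coding genes tested in both tables had at least 1, and 16.3% had a frame that overlaps the main start.

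**Figure D1:**
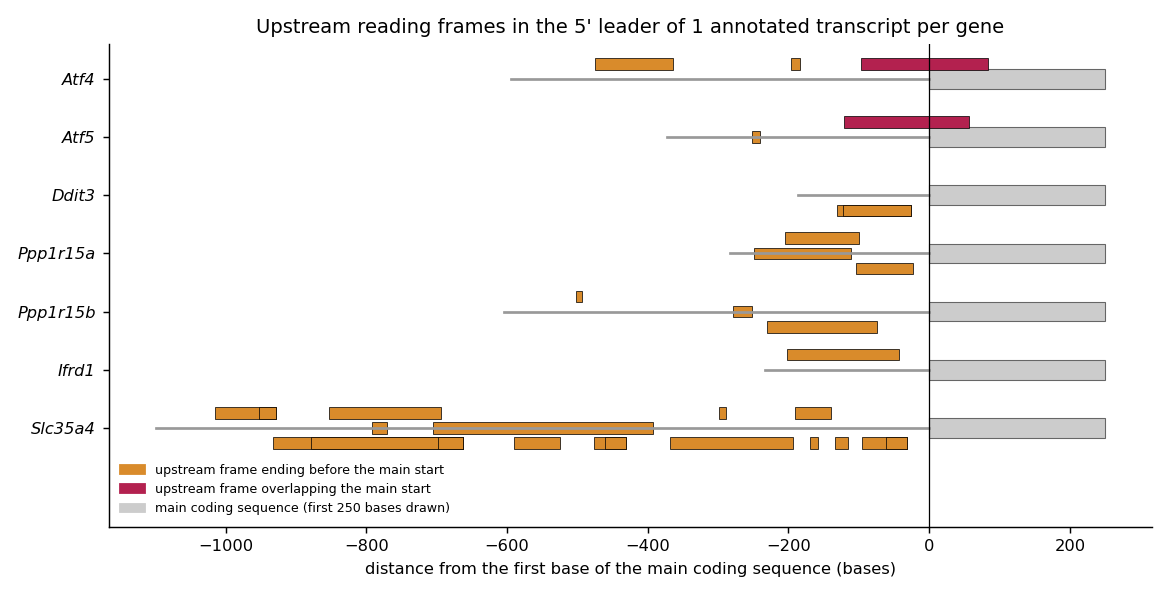
Upstream reading frames of the 7 genes, drawn to scale. The x axis is the distance in bases from the first base of the main coding sequence, grey lines are the 5′ leaders, and frames are set at 3 heights by their register. Only Atf4 and Atf5, with 1 frame each, have an upstream frame that runs over the main start in the transcripts drawn.

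The start codons themselves are shown for Atf4, Ddit3 and Ppp1r15b, the genes whose efficiency is called in the comparisons below, and for Atf5, whose layout is that of Atf4 and whose efficiency is not called. Of Ppp1r15b only the longest upstream frame is shown. Each line gives 6 bases before the AUG, the AUG in capitals as its DNA letters, and 4 bases after it, from the GENCODE transcript sequences, 5′ to 3′.
Atf4 upstream frame of 36 codons (AUG at chr15:80255303-80255305): tctctcATGgggc
Atf4 upstream frame of 3 codons (AUG at chr15:80255582-80255584): gccaccATGgcgt
Atf4 upstream frame of 59 codons, overlapping (AUG at chr15:80255681-80255683): taagccATGgcgc
Atf4 main start (AUG at chr15:80256299-80256301): cacaacATGaccg
Atf5 upstream frame of 3 codons (AUG at chr7:44816535-44816537): cgcgcaATGgctc
Atf5 upstream frame of 58 codons, overlapping (AUG at chr7:44816404-44816406): gccgccATGgagt
Atf5 main start (AUG at chr7:44815164-44815166): acagccATGtcac
Ddit3 upstream frame of 34 codons (AUG at chr10:127290829-127290831): tatatcATGttga
Ddit3 upstream frame of 31 codons, in the same register (AUG at chr10:127290838-127290840): ttgaagATGagcg
Ddit3 main start (AUG at chr10:127295341-127295343): gcagtcATGgcag
Ppp1r15b upstream frame of 51 codons (AUG at chr1:133131517-133131519): gccgggATGgacc
Ppp1r15b main start (AUG at chr1:133131747-133131749): aaggagATGgaga
A purine 3 bases before the AUG and a G directly after it mark a start codon that initiates well. Of the 14 upstream starts in the 6 genes other than Slc35a4, 10 had a purine at that position, 7 had the G, and 5 had both. Those 5 were both frames of Atf5, the short and the overlapping frame of Atf4, and the longest frame of Ppp1r15b. The Ppp1r15b frames of 2 and 8 codons, not shown above, lacked the purine. In Ddit3 the strong context was at the main start and neither upstream AUG was followed by a G.

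Values are normalized counts, read counts per gene scaled by the authors within each table. They summed to 65.8 to 73.9 M per total RNA library and 87.7 to 101 M per polyribosomal library. Dividing by a step, the commonest of the lowest values above 0, gave estimated depths of 24.8 to 139 M and 51.8 to 269 M. The mutant total RNA library of culture 3 stood apart, with 21171 genes above 0 against 16465 to 18365 in the other total RNA libraries. Tsc2 itself was at 6897 ± 676 (SD, n = 4) normalized counts in control and 6417 ± 664 in mutant total RNA (log2 change −0.10 ± 0.10 SE, limma adjusted p = 0.422), and lower in mutant polyribosomal RNA (−0.49 ± 0.15, adjusted p = 0.0389). A value for the whole gene includes exons outside the recombined part, so it is no check of the deletion. All 10 NSC markers searched for (among them Nes, Sox2, Vim and Olig2) were above 0 in both genotypes. Of these 10, 1 was called higher and 1 lower in mutant total RNA, and 2 were called lower in mutant polyribosomal RNA. Markers of other cells moved with genotype: all 6 oligodendrocyte markers were higher in mutant total and polyribosomal RNA, as were all 6 tested choroid plexus markers in polyribosomal RNA. In bulk cultures, fewer cells of a type and less RNA per cell cannot be told apart.

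Read per kilobase of the longest coding transcript, Atf4 was the most abundant of the 7 in control total RNA, at 13005 ± 776 (SD, n = 4) normalized counts per kilobase. Slc35a4 (5168 ± 136) and Atf5 (5006 ± 109) followed and overlapped each other between cultures. Ifrd1 stood at 2388 ± 372, below those and above Ppp1r15b (1113 ± 125) and Ddit3 (1097 ± 75.6), which overlapped. Ppp1r15a was lowest, at 797 ± 37.3. In mutant total RNA Ddit3 was at 1862 ± 628, Ifrd1 at 1520 ± 175, Ppp1r15a at 1148 ± 389 and Ppp1r15b at 1047 ± 83.9; Ddit3 overlapped with each of the other three, and Ppp1r15a with Ifrd1 and Ppp1r15b. The place of Ifrd1 depends on the transcript, because its coding transcripts have a median length of 639 bases against 3378 for the longest; on the median length it stood at 12636 per kilobase.

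Calls among the 7 mRNAs went in both directions. Of all genes tested, 40.3% were called in total RNA, 23.6% in polyribosomal RNA and 13% in efficiency, in either direction. In total RNA Ddit3 rose and Ifrd1 fell; 19.7% of the 14967 genes tested rose and 20.7% fell. In polyribosomal RNA Ddit3 rose, and Ifrd1 and Ppp1r15b fell; 11.7% of the 14412 genes tested rose and 11.9% fell. In translational efficiency Atf4 and Ddit3 rose and Ppp1r15b fell; 5.07% of the 14333 genes tested rose and 7.89% fell. Atf5, Ppp1r15a and Slc35a4 passed the threshold, an adjusted p of 0.05 over all genes tested, in none of the 3 limma fits. With library totals as the only scaling the median of all genes moved up by 0.10 in total and 0.13 in polyribosomal RNA, and the share of calls that were higher went from 48.8% to 62.9% and from 49.7% to 73.6% (from 39.1% to 49.3% in efficiency). Changes are therefore relative to the scaling used; of the calls among the 7, that of Ppp1r15b in polyribosomal RNA was lost and those of Atf4 (0.53, adjusted p = 0.0291) and Ppp1r15a were gained there. At an unadjusted p under 0.05, for which no share of all genes is given here, Ppp1r15a also counted in total and polyribosomal RNA and Atf4 in polyribosomal RNA.

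**Figure D2:**
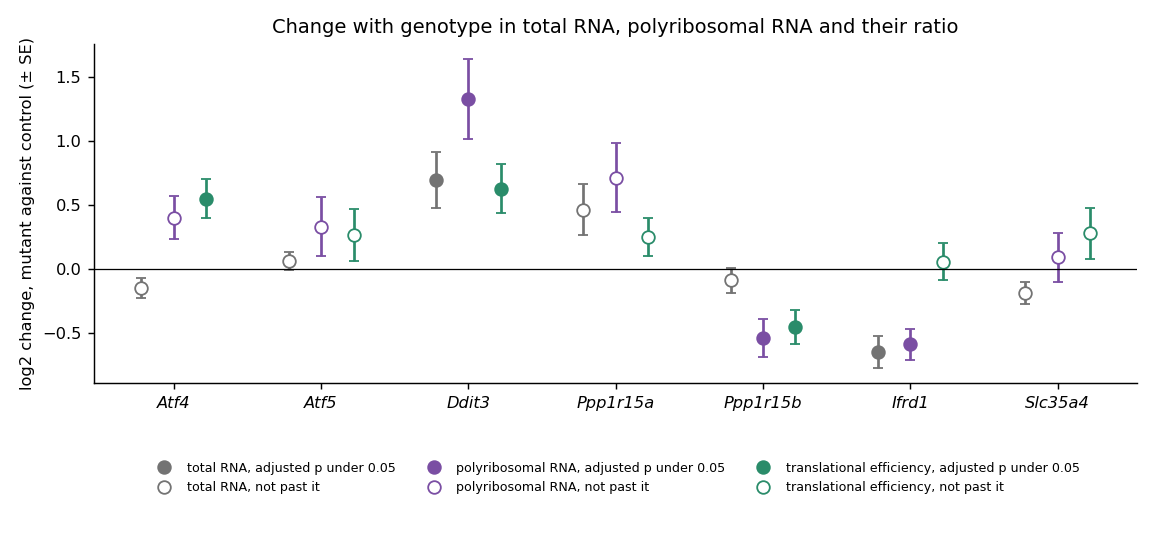
Log2 change of each mRNA, mutant against control, with its standard error, in total RNA, polyribosomal RNA and translational efficiency (4 cultures a genotype). Filled points passed an adjusted p of 0.05: Ddit3 in all 3, Ifrd1 in total and polyribosomal RNA (lower), Ppp1r15b in polyribosomal RNA and efficiency (lower), and Atf4 in efficiency.

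Atf4, the central transcription factor of the response, had more of its mRNA on polyribosomes per unit of total RNA in mutant cultures, with no rise in total RNA. In total RNA, control cultures 1 to 4 held 23153, 22779, 23347 and 20457 normalized counts and mutant cultures 21773, 19738, 19232 and 20198. Mutant values were mostly below control ones but overlapped them (log2 change −0.15 ± 0.08, limma adjusted p = 0.149). In polyribosomal RNA, control cultures held 16322, 19577, 19436 and 16860, and mutant cultures 31764, 18741, 27744 and 19362. Mutant cultures 1 and 3 were above all controls, whereas 2 and 4 lay within the control range (0.40 ± 0.17, adjusted p = 0.102). Efficiency was 1.47-fold higher in mutants (log2 0.55 ± 0.15, adjusted p = 0.0251), and all 4 mutant ratios exceeded all 4 control ratios (exact permutation test, two-sided p = 0.0286, the smallest that 4 against 4 allows). That p is for the gene alone and unadjusted. The share of all genes with such separation is not given, here or for the mRNAs below. The call rested on cultures 1 and 3: without mutant culture 1 the change was 0.45 (adjusted p = 0.0943), without mutant culture 3 it was 0.45 (0.0779), and without both it was 0.25 (0.247). Without control culture 3 it was 0.57 (adjusted p = 0.0562).

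Ddit3, which encodes the pro-apoptotic factor CHOP, showed the largest rise of the 7. In total RNA, control cultures 1 to 4 held 1057, 957, 897 and 996 normalized counts and mutant cultures 1888, 986, 2288 and 1465. Mutant culture 2 was within the control range and the other three were above it (0.70 ± 0.22, adjusted p = 0.0288, 1.62-fold). In polyribosomal RNA, control cultures held 452, 713, 669 and 727, and mutant cultures 2458, 903, 2374 and 1176. Here all 4 mutants were above all controls (1.32 ± 0.31, adjusted p = 0.0138, 2.50-fold with a 95% interval of 1.56 to 4.02), and again mutant cultures 1 and 3 were the highest. The efficiency change was 0.63 ± 0.19 (adjusted p = 0.0399), with no overlap between genotypes (exact permutation test, two-sided p = 0.0286). In total RNA the call was lost without any one of control cultures 2, 3 or 4 or mutant cultures 1 or 3 (adjusted p = 0.0666, 0.0681, 0.0549, 0.0804 and 0.0631). In polyribosomal RNA the change stayed past the threshold with any single culture left out, from 1.11 to 1.59, and without mutant cultures 1 and 3 together it was 0.71 (adjusted p = 0.0684). The efficiency call was lost without control culture 2 or 3 or mutant culture 1, 2 or 3 (adjusted p = 0.0520, 0.0573, 0.133, 0.0529 and 0.0953). The annotation overlaps at this gene are 68 exonic bases of Mars and 13 of Gm4189 on the other strand and a second entry, also named Ddit3, of 105 bases for the upstream frame, and the libraries do not mark strand.

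Ppp1r15b, the constitutive partner of protein phosphatase 1, went the other way. In total RNA it held 7062, 5392, 6426 and 6028 normalized counts in control cultures 1 to 4 and 5987, 6397, 5271 and 5763 in mutant cultures, which overlapped (−0.09, adjusted p = 0.506). In polyribosomal RNA it held 4408, 4049, 4680 and 3508 in control and 2873, 3461, 2875 and 2310 in mutant cultures, with every mutant below every control (−0.54 ± 0.15, adjusted p = 0.0234, 0.69-fold). Efficiency fell by 0.45 ± 0.13 on the log2 scale (adjusted p = 0.0351), with no overlap between genotypes (exact permutation test, two-sided p = 0.0286). Without mutant cultures 1 and 3 the efficiency change was −0.52 (adjusted p = 0.122), so its size did not rest on them. The polyribosomal call was lost without control culture 1, 2 or 3 or mutant culture 1 (adjusted p = 0.0575, 0.0565, 0.0734 and 0.0518), and the efficiency call without control culture 2 or 3 or mutant culture 1 or 4 (0.130, 0.114, 0.0891 and 0.0781). With library totals as the only scaling the polyribosomal change was −0.41 (adjusted p = 0.0587). Gm26616, annotated on the other strand, covers 640 exonic bases of Ppp1r15b, and its reads cannot be told apart from those of the gene.

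Ppp1r15a, the inducible partner of the same phosphatase, had its high values in the cultures where those of Ddit3 were high. In total RNA it held 2383, 2146, 2180 and 2248 normalized counts in control cultures 1 to 4 and 3562, 2125, 4598 and 2612 in mutant cultures (0.46 ± 0.20, adjusted p = 0.0880). In polyribosomal RNA it held 1602, 2084, 1989 and 2074 in control and 4207, 2209, 5185 and 2077 in mutant cultures (0.71 ± 0.27, adjusted p = 0.0712). Mutant cultures 1 and 3 were above every control in both tables, while mutant culture 2 in total RNA lay just below the lowest control and mutant culture 4 in polyribosomal RNA within the control range. With library totals as the only scaling the polyribosomal change was 0.84 and passed the threshold (adjusted p = 0.0322). It also passed without mutant culture 2 (0.89, adjusted p = 0.0276) or mutant culture 4 (0.92, 0.0289), as did total RNA without mutant culture 2 (0.64, 0.0104). The efficiency change was 0.25, with a 95% interval of the fold from 0.95 to 1.48 (adjusted p = 0.276).

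Ifrd1 fell in both tables alike, without a detected change in their ratio. In total RNA it held 6731, 9075, 9205 and 7261 normalized counts in control cultures 1 to 4 and 4806, 6001, 4707 and 5025 in mutant cultures (−0.65 ± 0.12, adjusted p = 0.00471, 0.64-fold). In polyribosomal RNA it held 8528, 7484, 7796 and 6772 in control and 4451, 5281, 5230 and 5423 in mutant cultures (−0.58 ± 0.12, adjusted p = 0.00764, 0.67-fold). Every mutant was below every control in both tables, and both calls stood with any single culture left out. The efficiency change was 0.06, with a 95% interval of the fold from 0.85 to 1.29 (adjusted p = 0.807). The antisense gene Gm7008 overlaps 321 exonic bases of Ifrd1, so reads there cannot be assigned to a strand.

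Atf5, a relative of Atf4 with the same frame layout, and Slc35a4 passed the threshold in no comparison. Atf5 ranged from 8896 to 9337 normalized counts in control and from 8971 to 10076 in mutant total RNA (0.07, adjusted p = 0.470). In polyribosomal RNA it ranged from 5399 to 8862 and from 6468 to 12747 (0.33, adjusted p = 0.303), with mutant cultures 1 and 3 above all controls. Its efficiency change was 0.27, with a 95% interval of the fold from 0.89 to 1.63 (adjusted p = 0.402), which includes the fold seen for Atf4. Slc35a4 ranged from 14312 to 15200 in control and from 11164 to 13864 in mutant total RNA, with no overlap but a small difference (−0.19, limma adjusted p = 0.103, while the exact permutation test of the gene alone gave two-sided p = 0.0286). In polyribosomal RNA it ranged from 8737 to 13980 and from 9598 to 15745 (0.09, adjusted p = 0.748), and its efficiency change was 0.28 (adjusted p = 0.367). The annotated processed pseudogene Gm5866 matches Slc35a4 over 974 bases at 97.9% identity, and how the authors' counting treated reads that fit both is not given in the sources used here.

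**Figure D3:**
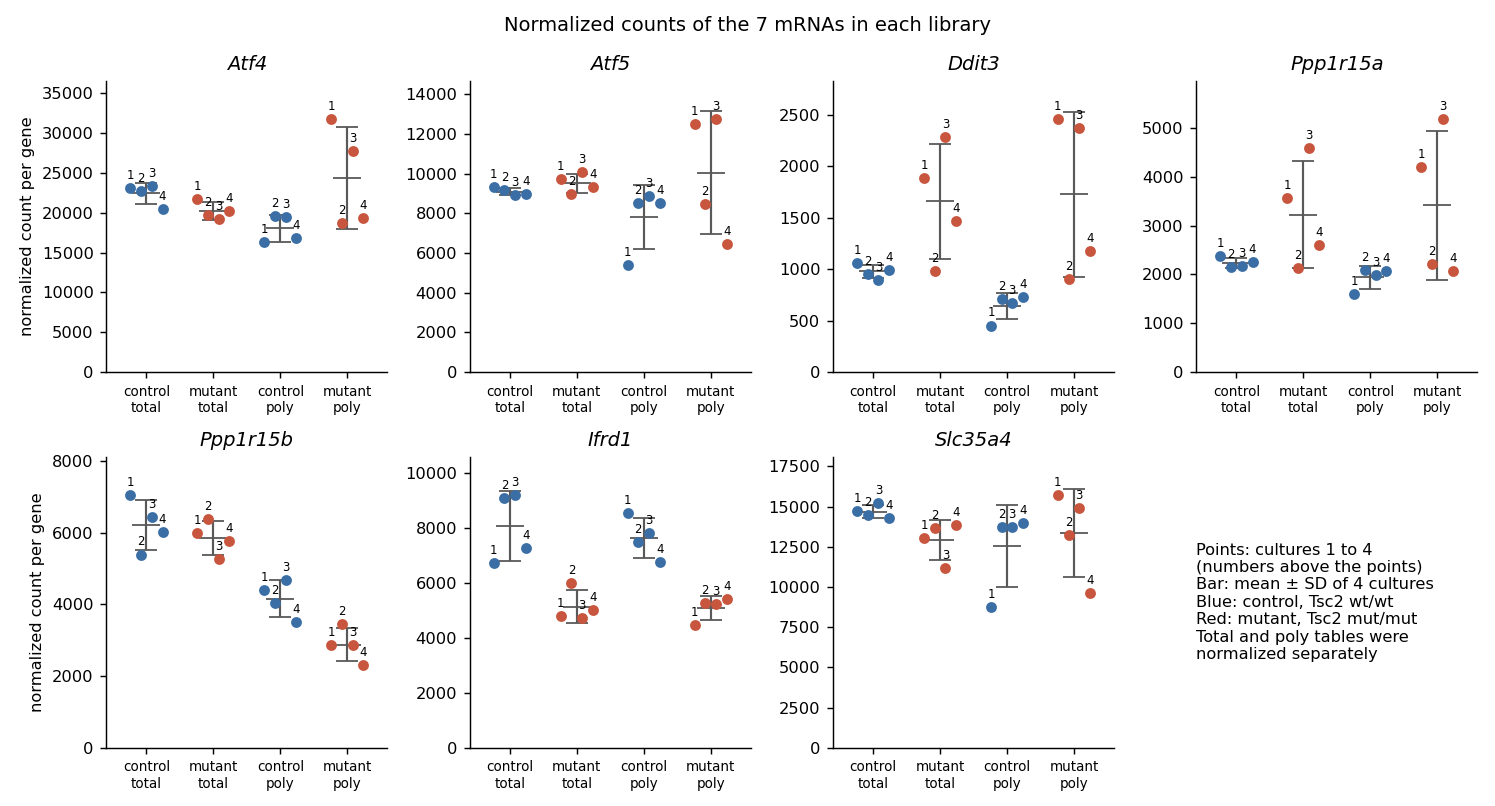
Normalized counts of each mRNA in every library, with the culture number above each point and the mean ± SD of 4 cultures as bars. The y axes start at 0 and differ between genes, and total and polyribosomal tables were normalized apart. Mutant cultures 1 and 3 are the highest 2 of 8 in polyribosomal RNA for Atf4, Atf5, Ddit3, Ppp1r15a and Slc35a4.

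The mutant cultures were thus uneven. In polyribosomal RNA mutant cultures 1 and 3 were the highest 2 of the 8 libraries for 5 of the 7 mRNAs, a pattern found in 17.2% of all genes tested, and in total RNA for 3 of the 7 (Atf5, Ddit3 and Ppp1r15a), against 17.8%. This grouping was noticed in the values, and it is not a group in the labels. With cultures 2 and 4 left out, an alternative drawn up with these values known, 6 of the 7 passed the threshold in polyribosomal RNA, where Atf4 (0.72), Atf5 (0.72), Ddit3 and Ppp1r15a (1.28) were higher and Ppp1r15b and Ifrd1 lower; 37.6% of all genes tested passed in that fit, against 23.6% with all cultures. With cultures 1 and 3 left out, 1 of the 7 passed in polyribosomal RNA, with 8.22% of all genes. The summed level of 10 microglia and macrophage markers in total RNA was 19260 and 10950 normalized counts in mutant cultures 2 and 4, against 4479 and 2807 in mutant cultures 1 and 3 and 2577 to 4308 in controls, and none of the 10 was at 0 in all libraries of a genotype. The summed choroid plexus markers in polyribosomal RNA were at 1041, 176, 943 and 665 in mutant cultures 1 to 4, against 76.0 to 123 in controls. In total RNA they were at 675, 494, 3496 and 777 (270 to 345 in controls), with culture 4 above culture 1. The summed neuron markers in polyribosomal RNA were at 7081, 2451, 6035 and 5355 (2373 to 3123 in controls), with culture 2 within the control range. The summed oligodendrocyte markers were highest in mutant cultures 1 and 3 in both tables. In polyribosomal RNA of mutant cultures 1 to 4 they were at 58890, 42440, 76960 and 44440 (25580 to 30000 in controls). In total RNA they were at 20230, 18030, 24790 and 18650 (8862 to 10470). Y-linked genes, which mark male cells, had a mean log2 level of 10.15 in mutant culture 1 and 1.00 to 3.71 in the other mutants, against 5.94 to 10.42 in controls. The part of cell makeup or sex in the results was not tested. When the Y-linked level entered the fit, none of the 7 passed the limma threshold in any comparison, while 2, 4 and 2 of them had an unadjusted p under 0.05 in total RNA, polyribosomal RNA and efficiency. The matching count over all genes is given for efficiency alone, so the counts in total and polyribosomal RNA cannot be judged against it. Few genes passed in that fit at all: 7.10% in total RNA, 0.298% in polyribosomal RNA and none in efficiency (2214 of 14333 at an unadjusted p under 0.05).

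Because the 2 tables were scaled apart, the ratio of polyribosomal to total RNA was read within each culture as a difference from the median gene of that culture, on the log2 scale. In controls 6 of the 7 means lay below the median gene, and that of Ifrd1 lay above it (0.12 ± 0.32). For Atf5, Ppp1r15a and Slc35a4 control culture 1 alone put the mean below 0: control cultures 2 to 4 lay at 0.05 to 0.16, 0.03 to 0.12 and 0.02 to 0.16. Ddit3 was at −0.44 ± 0.37 (SD, n = 4) and Ppp1r15b at −0.40 ± 0.15, ranks at the 17.1 to 40.6 and 28.8 to 40.9 percentile of all genes. Atf4 was at −0.13 ± 0.10, between the 39.4 and 48.0 percentile. In mutants Atf4 was at 0.45 ± 0.35, between the 54.4 and 72.8 percentile, and Ddit3 at 0.21 ± 0.29, between the 47.1 and 68.1 percentile. Ppp1r15b moved down to −0.82 ± 0.19, between the 12.6 and 27.3 percentile. For Atf5, Ppp1r15a, Ifrd1 and Slc35a4 the genotypes overlapped, and control culture 1 was at the low end for Atf5 (−0.56), Ppp1r15a (−0.34) and Slc35a4 (−0.53) but at the high end for Ifrd1 (0.57). Zero on this scale is the median gene; set against the ratio of column totals all values are lower, and the mutant means of Atf4 (−0.17), Atf5 (−0.38), Ddit3 (−0.41), Ppp1r15a (−0.37), Ifrd1 (−0.41) and Slc35a4 (−0.38), which lie above 0 on the median scale, are then negative. A position above or below 0 therefore depends on the centring.

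**Figure D4:**
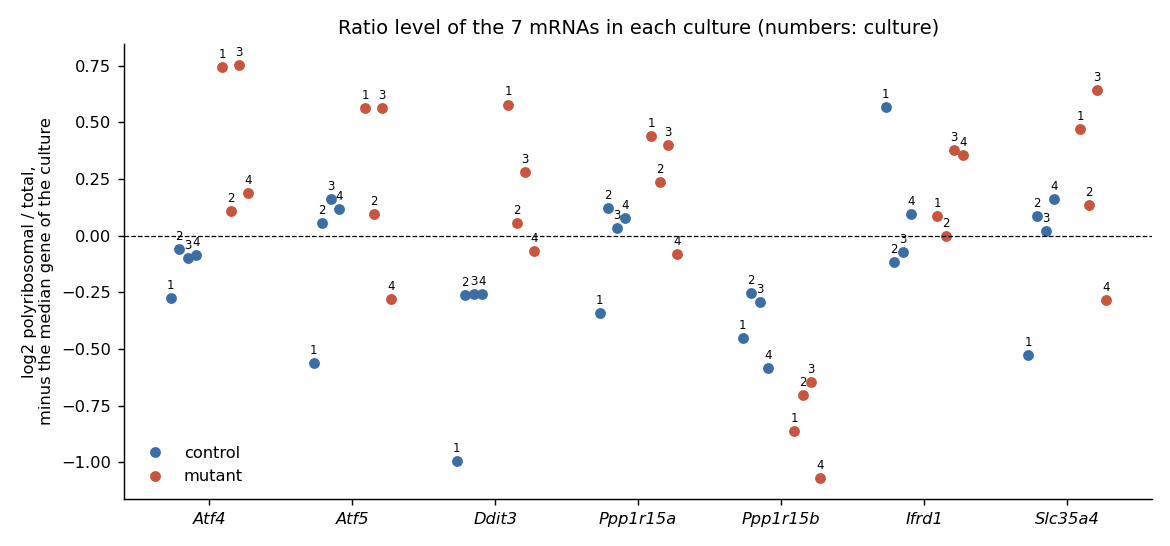
Log2 ratio of polyribosomal to total RNA for each mRNA and culture, minus the median gene of that culture (dashed line at 0), with culture numbers above the points. For Atf4 and Ddit3 all 4 mutant cultures lie above all 4 controls, and for Ppp1r15b all 4 lie below. The share of all genes so separated is not given.

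Transcript length moved with the change in efficiency across all genes, and the 7 mRNAs differ widely in length. Among 13618 annotated genes the median efficiency change was 0.26 for the shortest of 5 length bins (216 to 1740 bases, 17.2% called higher) and fell by bin through 0.06, −0.06 and −0.14 to −0.19 for the longest (4958 bases and over, 20.4% called lower). Atf4 (1725 bases) and Ddit3 (890 bases) fell in the shortest bin, Atf5 and Ppp1r15a in the next, Ifrd1 and Slc35a4 in the middle one, and Ppp1r15b (5594 bases) in the longest. Against the median of its own bin, Ddit3 was 0.37 higher (88.3 percentile of the bin), Slc35a4 0.34 higher (88.0), Atf4 0.29 higher (84.1), Atf5 0.21 higher (84.0), Ppp1r15a 0.19 higher (82.5) and Ifrd1 0.12 higher (67.4). Ppp1r15b was 0.26 lower (25.7 percentile). In an alternative added after the values were seen, the trend of the ratio on length was removed within each culture before the fit. There none of the 7 passed the limma threshold, with 4.85% of all genes called. An unadjusted p under 0.05 was reached by 2 of the 7, a count not given for all genes. Atf4 changed by 0.43 (limma adjusted p = 0.0779), Ddit3 by 0.26 (0.345) and Ppp1r15b by −0.25 (0.197). Whether length or another property of the mRNAs set the shift was not tested.

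**Figure D5:**
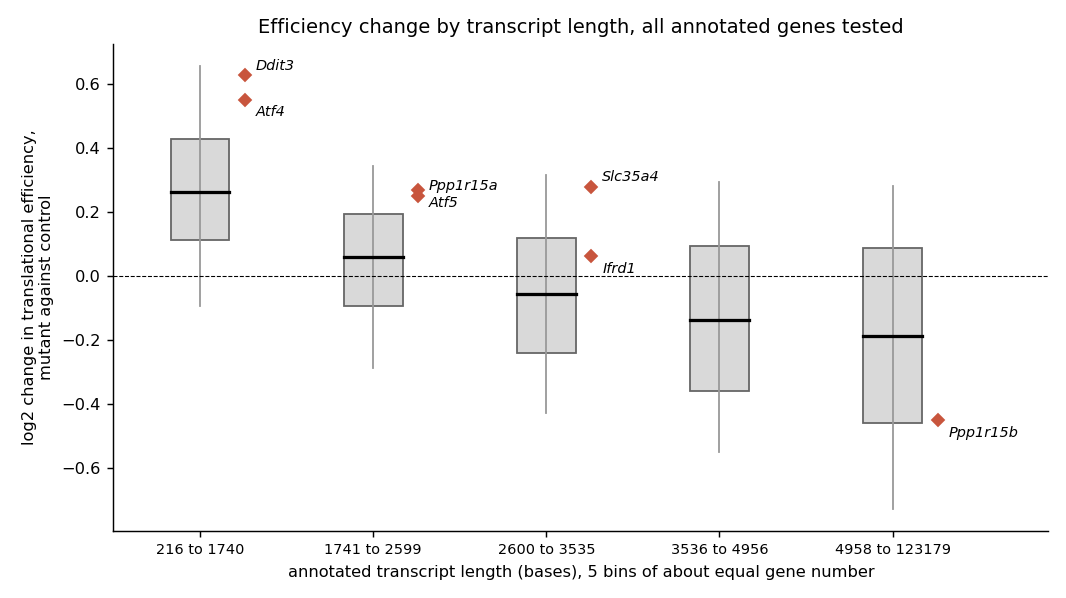
Log2 change in translational efficiency, mutant against control, for all annotated genes in 5 bins of transcript length. Boxes span the middle 50 percent of genes, thin lines the 10 to 90 percentile range, black bars the median (0.26 in the shortest bin to −0.19 in the longest), and red diamonds are the 7 mRNAs in their bins.

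Upstream AUGs did not separate the genes in the same way. The median efficiency change was 0.02 for 6651 genes with no upstream AUG in the annotated leader and −0.01 for 6967 genes with at least 1, whose transcripts were also longer (median 3357 against 2726 bases). With no upstream AUG 5.43% were called higher and 6.99% lower, and with at least 1 it was 4.42% and 9.44%. For the 2225 genes with a frame that overlaps the main start the median was −0.00 (4.72% called higher and 8.63% lower). Atf4 and Atf5 belong to these 2225, and their changes of 0.55 and 0.27 stood above that median, though that of Atf5 was not called.

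The machinery that sets this response was described from lists of genes, as counts past the threshold, to be read against the shares of all genes: 19.7% rose and 20.7% fell in total RNA, 11.7% and 11.9% in polyribosomal RNA, and 5.07% and 7.89% in efficiency. With 1 culture left out, the share called in either direction ran from 28% to 44.4% in total RNA. It ran from 13.1% to 28.4% in polyribosomal RNA and from 4.52% to 22.9% in efficiency. List counts from those fits are to be read against these shares. Of 8 eIF2 kinases and their activators, 1 rose and 2 fell in total RNA, and 1 fell in both polyribosomal RNA and efficiency. Scaled by library totals alone, 2 rose and none fell in total RNA and none passed in polyribosomal RNA, and without control culture 2 or 3 or mutant culture 1 or 3 none passed in total RNA, so the list gave no direction that held. Eif2ak3, which encodes PERK, the kinase of the endoplasmic reticulum, rose in total RNA (0.34 ± 0.10, adjusted p = 0.0242). Eif2ak4 (GCN2, the sensor of uncharged tRNA) and Dele1 (a relay from stressed mitochondria) fell in total RNA (−0.28 and −0.26). Gcn1l1, a large activator of GCN2, fell in polyribosomal RNA (−0.62 ± 0.18, adjusted p = 0.0296) and in efficiency (−0.63 ± 0.15, 0.0133), with no change detected in total RNA (0.01).

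Of the 8 subunits of eIF2 and its exchange factor eIF2B, 6 fell in total RNA and 4 in polyribosomal RNA, and none rose. Eif2s1, the alpha subunit that carries the regulatory phosphate, fell by 0.98 ± 0.17 on the log2 scale in total RNA (adjusted p = 0.00344) and by 0.64 ± 0.21 in polyribosomal RNA (0.0468). Eif2b5, the catalytic subunit of the exchange factor, fell by 0.58 and 0.50, Eif2b3 by 0.69 and 0.55, and Eif2b4 by 0.43 and 0.33. The median over the 8 was −0.56 in total RNA, against 0.01 for all genes tested. Scaled by library totals alone 6 of the 8 fell in total RNA, whereas in polyribosomal RNA 1 rose and 1 fell. Without any single culture 6 still fell in total RNA, but in polyribosomal RNA 1 fell without control culture 1, 2 or 3 or mutant culture 1 or 3, and 2 without control culture 4. No subunit passed in efficiency (limma; median change 0.16 against 0.01), where Eif2s1 had an unadjusted p of 0.0471.

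Of 11 factors that choose start codons or help ribosomes re-initiate, 9 fell in total RNA and 2 in polyribosomal RNA, with a median of −0.45 and −0.30. The polyribosomal count was 0 without control culture 1, 2 or 3 or mutant culture 1, 2 or 3, 1 without control culture 4 and 4 without mutant culture 4, and the polyribosomal values of Eif5b (0.38), Eif1b (0.14) and Eif1 (0.03), named here after their values were seen, lay above 0. Scaled by library totals alone 8 fell in total RNA, and 1 rose and none fell in polyribosomal RNA; without mutant cultures 1 and 3, 2 fell in total RNA and none passed in polyribosomal RNA. Eif1ax, the scanning factor eIF1A, fell by 0.46 and 0.42 and Bzw2, an eIF5 mimic, by 0.50 and 0.39. Denr and Eif2d, which act in re-initiation and ribosome recycling, fell in total RNA (−0.49 and −0.33), and their polyribosomal values were −0.35 (adjusted p = 0.125) and −0.11 (0.483). Neither passed in efficiency (adjusted p = 0.438 and 0.259). Among 5 phosphatase parts, 3 fell in total RNA: Ppp1cc (−0.49) and Ppp1ca (−0.35), catalytic subunits of protein phosphatase 1, and Actg1 (−0.27), an actin. With library totals alone 2 fell and 1 rose, and 2 fell without control culture 2, 3 or 4 or mutant culture 1.

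Of 12 other mRNAs with known regulatory upstream frames, 4 rose and 5 fell in total RNA, 2 rose and 3 fell in polyribosomal RNA, and 2 rose and 2 fell in efficiency. Calls fell from 9 to 5 in total RNA without mutant culture 1 and to 6 without control culture 2 or 3, and with any single culture but control culture 1 left out they were 1 to 3 in efficiency. Sat1, which acetylates spermidine and spermine, rose in total RNA (0.97 ± 0.20), polyribosomal RNA (1.43 ± 0.24) and efficiency (0.46 ± 0.13, adjusted p = 0.0307). Eprs, a tRNA synthetase whose upstream frames respond to eIF2 phosphorylation, fell in total RNA (−0.62 ± 0.10, adjusted p = 0.00340) and rose in efficiency (0.40 ± 0.12, 0.0366). Slc7a1, the cationic amino acid transporter CAT1, fell in total RNA (−0.54), polyribosomal RNA (−1.22) and efficiency (−0.67 ± 0.15, adjusted p = 0.0107). Ucp2, a mitochondrial carrier, rose in total RNA (1.14 ± 0.23, adjusted p = 0.00542).

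Genes known as targets of ATF4 were called lower more often than higher in amino acid and folate metabolism, and in both directions among stress genes. Of 19 targets in amino acid and folate metabolism, 1 rose and 10 fell in total RNA, and 9 fell and none rose in polyribosomal RNA, with medians of −0.37 and −0.42 (0.01 for all genes in both). Scaled by library totals alone 10 and 7 fell, and without mutant cultures 1 and 3, 6 and 8 fell. With the Y-linked level in the fit 2 fell in total RNA and none in polyribosomal RNA, where 7.1% and 0.298% of all genes were called. Asns, which makes asparagine, fell by 1.06 ± 0.15 and 0.92 ± 0.14 (adjusted p = 0.00260 and 0.00257), and Mthfd2, a mitochondrial folate enzyme, fell by 1.20 ± 0.19 in total RNA (0.00303) and also in polyribosomal RNA (adjusted p = 0.00241). Aldh18a1 of proline synthesis fell by 0.61 and 0.87, and Mthfd1l, another mitochondrial folate enzyme, by 0.55 and 0.95. Mthfd1l also fell in efficiency (−0.40 ± 0.11, adjusted p = 0.0299), where 3 of these 19 targets fell and none rose. None of the 19 fell in efficiency without control culture 2, 3 or 4 or mutant culture 1 or 3. In those fits 4.52% to 10.8% of all genes were called in efficiency, against 13% with all cultures. Of 19 stress targets of ATF4 and CHOP, 4 rose and 6 fell in total RNA and 4 rose and 5 fell in polyribosomal RNA, where 6 rose and 2 fell with library totals alone. In polyribosomal RNA 2 rose and 2 fell without control culture 2 or mutant culture 3, 2 rose and 3 fell without control culture 1 or 3 or mutant culture 1, 2 rose and 4 fell without control culture 4, and 7 rose and 6 fell without mutant culture 2; in total RNA 7 rose and 6 fell without mutant culture 2, and 6 rose and 6 fell without mutant culture 4. Vldlr, a lipoprotein receptor, rose (0.96 ± 0.11 in total RNA, adjusted p = 0.00219), while the tRNA synthetases Cars (−0.69) and Nars (−0.52) and the ATF4 partner Cebpg (−0.48) fell. Atf3 (1.42), Dusp8 (1.49) and Bbc3 (0.80) also rose in total RNA, and Wars (−0.49), Stc2 (−0.51) and Sars (−0.33) also fell. Of 17 bZIP partners and relatives, 7 rose and 3 fell in total RNA and 2 fell in polyribosomal RNA, where 3 rose and none fell with library totals alone. The 7 that rose in total RNA became 2 without mutant culture 3, 3 without control culture 3, and 4 without control culture 2 or 4 or mutant culture 1, and 1 without mutant cultures 1 and 3. In polyribosomal RNA none fell without control culture 1, 2 or 4 or mutant culture 1 or 3, 1 fell without control culture 3, and 3 and 2 rose without mutant culture 2 and 4. Atf6 (0.42) and Atf7 (0.50) rose in total RNA, and Atf1 (−0.48) and Cebpg fell in both tables. Of the 17, 1 rose and 1 fell in efficiency, the latter Atf7 (−0.49 ± 0.16, adjusted p = 0.0486). None fell in efficiency without control culture 2, 3 or 4 or mutant culture 1 or 4.

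Patterns most like those of the 7 were sought over the 16 libraries, as Pearson correlations of log2 values after each gene was centred in each table, among 14332 other genes. The libraries share genotypes and cultures, so the coefficients are descriptions. Hyi (0.989) and Creb3 (0.975), a bZIP factor of secretory stress, were nearest to Ddit3, and Arid5a (0.989) and Jund (0.979) to Ppp1r15a. Atf4 had looser neighbours, Smarcd3 (0.920) and Zfp637 (0.912), and Atf5 was nearest to Natd1 (0.971) and Map3k10 (0.945). Ppp1r15b was nearest to C530008M17Rik (0.971) and Cep164 (0.964), Ifrd1 to 2700097O09Rik (0.971) and Prpsap2 (0.962), and Slc35a4 to Tmem250-ps (0.955) and B4galt2 (0.932).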

How the data were processed

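The authors trimmed reads and aligned them with STAR to mm10, and DESeq2 scaled the counts, as their methods and the processing notes of the submitters say; no source used here names the read counter or its annotation. The deposited values are a signal, normalized counts per gene, in 1 table of 8 total RNA libraries and another of 8 polyribosomal libraries. Low values lay within 0.1 of whole multiples of a step in 61.8% to 91.3% of cases, so whole reads were not recovered and no count model was used; depth is the column total over that step. Cycloheximide was applied for 15 minutes, gradients ran from 17.5% to 50% sucrose, and the heaviest 3 mL were taken. Of 24972 rows, 26 with names turned into dates were left out.

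Groups and culture numbers came from the labels. Litters are not given, so p-values cover only the variation from culture to culture. Genes averaging 10 or more over a table were tested with limma 3.58.1 (R 4.3.3; trend, robust) on log2(value + 1), which understates changes of low genes, with Benjamini-Hochberg adjustment over all genes tested. Efficiency is the interaction of genotype and fraction over 16 libraries with culture as a block. Deviations from group means of the total and polyribosomal library of 1 culture correlated at 0.233 to 0.731, whereas same-numbered control and mutant cultures, at −0.13 to 0.101, are not pairs. The fits of total RNA, polyribosomal RNA and efficiency were first tested on simulated data, at the settings described above. The alternative settings were not tested in that way. Of 24946 rows, 20659 matched a coding gene in GENCODE M21, 90 of them by an older symbol. Start contexts of Slc35a4 are not reported here. The members, gene lists and alternatives were chosen with earlier results of these data known. Genes named beside the 7 are those of each list past the threshold, up to 4 by smallest adjusted p, and the 2 most alike in pattern. For the stress targets all those called in total RNA are named. Alternatives covered scaling, pseudocount, filters, left-out cultures, a Y-linked covariate, the block, transcript length and an exact permutation test.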

Additional observations from a re-analysis of the deposited data

Results flagged for a closer look

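Of the 42 groups of 4 cultures examined, control and mutant alike, 4 were flagged by Dixon's test at the 95% level, where chance flags about 1 in 20. In all 4, control culture 1 lay far below the other 3 controls. The ratio levels among the groups were computed from the other values, so the flags are not independent. In polyribosomal RNA Atf5 was at 5399 normalized counts against 8499 to 8862 (gap over range 0.915), and Slc35a4 at 8737 against 13737 to 13980 (0.963). In the ratio level, Ddit3 was at −0.996 on the log2 scale against −0.26 in the others (0.993), and Atf5 at −0.56 against 0.05 to 0.16 (0.853). Without control culture 1 the efficiency change was 0.43 for Ddit3 (limma adjusted p = 0.0405) and 0.09 for Atf5.

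The change with genotype differed between polyribosomal and total RNA, by the interaction term, for Atf4 (0.551 ± 0.151 on the log2 scale, limma adjusted p = 0.0251), Ddit3 (0.628 ± 0.190, 0.0399) and Ppp1r15b (−0.452 ± 0.133, 0.0351).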

How the results depend on the processing

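With single cultures left out, members called ranged from 1 to 3 in total RNA, 2 to 5 in polyribosomal RNA and 0 to 3 in efficiency. The count in efficiency was 0 without control culture 3 or mutant culture 1, where 5.34% and 4.52% of all genes were called. In those fits 3 members had an unadjusted limma p under 0.05. Genes called ranged from 4190 to 6648, from 1888 to 4086 (against 3403) and from 647 to 3282 (against 1858); a count of genes moved over 1.5 times without control culture 1, 2 or 3 or mutant culture 1 or 3. With no filter 1 member and 1350 genes (6.73%) were called in efficiency. With the Y-linked covariate, 1063, 43 and 0 genes and 0, 0 and 0 members were called (2214 genes at an unadjusted p under 0.05 in efficiency). Without mutant cultures 2 and 4, 4 members and 6778 genes (45.4%) were called in total RNA. That setting called 6 members and 5395 genes (37.6%) in polyribosomal RNA. Without mutant cultures 1 and 3, chosen after the values were seen, 2311, 1179 and 0 genes (3250 unadjusted in efficiency) and 1, 1 and 0 members were called. With the length trend removed 661 genes and 0 members were called. The cause of each was not tested.

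The efficiency fit with no replicate block for culture called 0 genes (2221 unadjusted) and 0 members (2 unadjusted), with Atf4 at an adjusted p of 0.206, Ddit3 at 0.492 and Ppp1r15b at 0.237. A replicate block on the number shared by control and mutant cultures, which are not pairs, called 2 members and 4741 genes in total RNA and 3 members and 2361 genes in polyribosomal RNA. Library totals as the only scaling, a pseudocount of 10 and a mean of at least 100 kept the counts within 1.5 times. No member changed sign while called in any fit.

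Centred on the ratio of column totals, ratio levels in control and mutant were −0.75 and −0.17 for Atf4, −0.68 and −0.38 for Atf5, −1.06 and −0.41 for Ddit3, −0.65 and −0.37 for Ppp1r15a, −1.01 and −1.44 for Ppp1r15b, −0.50 and −0.41 for Ifrd1, and −0.68 and −0.38 for Slc35a4. With the median transcript length, control total RNA per kilobase was 18820 for Atf4, 5240 for Atf5, 1311 for Ddit3, 960 for Ppp1r15a, 12636 for Ifrd1 and 6089 for Slc35a4. The lowest group mean of a member was 640 normalized counts, for Ddit3 in control polyribosomal RNA.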

Other observations

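Among the 7 mRNAs, centred log2 values over the 16 libraries were closest between Ddit3 and Ppp1r15a (Pearson 0.949), followed by Atf5 and Ppp1r15a (0.804) and Atf4 and Atf5 (0.783). Ifrd1 ran against Ddit3 (−0.832) and Ppp1r15a (−0.728), and Ppp1r15b against Ddit3 (−0.693). The phosphatase partners Ppp1r15a and Ppp1r15b were at −0.509. These libraries share genotypes and cultures, so the coefficients describe these samples and carry no test.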
